A study of Homo sapiens with 80 samples.

Results

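The genes described here are 147 neighbours on the short arm of chromosome 7 (7p), followed in SU-DHL-1 cells that carried a CSNK2B vector. A gene was a member when the PRO-seq table placed it on chromosome 7 with a start from 1570000 to 55900000 (hg38), and when its mean level over the 6 vector libraries of SU-DHL-1 was over 4 CPM, the count scaled to the library's total. IKZF1 and SNHG15 were left out by that rule. The interval held 239 genes of the PRO-seq table, of which 9 were not in the RNA-seq tables, 81 were at or below the CPM minimum and 2 were the genes left out. The RNA-seq tables held 58735 genes in all. The interval was drawn with the difference between the SU-DHL-1 vector groups in view, so values of that comparison are a description, and its test calls are counted once beside their background with nothing read from them. At the level minimum the members just inside were PSMA2 at 4.24 CPM and ZNF815P at 4.43 CPM, and the genes just below it were PSMG3-AS1 at 3.56 CPM and LINC00265 at 3.48 CPM.

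The study asked how SU-DHL-1, an established line from a T-cell lymphoma (the ALK-positive anaplastic large cell type), becomes resistant to lenalidomide, a drug that makes the ubiquitin ligase adaptor cereblon degrade IKZF1, IKZF3 and ZFP91. The CSNK2B vector groups were SU-DHL-1 and KI-JK cells, both of that lymphoma, transduced to overexpress CSNK2B, the regulatory subunit of casein kinase 2, and each was set against cells with an empty vector. The regrown groups were 3 pools of SU-DHL-1 selected separately under rising lenalidomide and then kept without drug for at least 2 months, and they were set against parental SU-DHL-1. Regrown and parental cells were measured by PRO-seq, which reads RNA under synthesis by engaged polymerase, and by RNA-seq and DGE (sequencing of transcript 3' ends). In that RNA-seq every group, parental included, carried Cas9 and an inducible guide RNA against ZFP91, either without doxycycline or with 1 µg/ml doxycycline for 96 h. The sample titles name the groups with doxycycline ZFP91 KO (knockout) and those without it ZFP91 WT. The RNA-seq comparisons with and without doxycycline therefore differ in ZFP91 knockout as well as in doxycycline. In DGE the cells had 18 h of DMSO or of 2.5 µM lenalidomide. Every group had 3 libraries, and RNA-seq and PRO-seq libraries held 14444523 to 47199672 counts, while DGE libraries held 41571 to 395827. The labels name neither the promoter of the vectors nor separate transductions, so p-values measure the spread between libraries, which may be technical. ALK stood at 466 to 481 CPM in CSNK2B vector and 477 to 502 CPM in empty vector libraries of SU-DHL-1, and TNFRSF8, which encodes CD30, at 434 to 451 and 418 to 438 CPM. Of the other 6 genes of that marker list, GZMB was at 665 to 698 CPM in CSNK2B vector and 577 to 614 CPM in empty vector libraries, with no overlap, and PRF1 at 681 to 707 and 643 to 666 CPM. The T cell genes TRBC2 (1.07 to 1.40 and 1.04 to 1.52 CPM), CD2, CD3E and TRBC1 were low, the last 3 below 1 CPM in those libraries, as were all 5 B cell markers, all 3 erythroid markers and 4 of 6 myeloid markers (CSF1R and ITGAM reached 1 CPM). Of 7 epithelial and stromal markers, KRT18 was at 10.49 to 11.1 CPM in CSNK2B vector and 11.01 to 12.5 CPM in empty vector libraries, and COL1A1 at 0.987 to 1.205 and 1.82 to 6.34 CPM. KRT8, COL1A2 and DCN reached 1.52, 4.29 and 1.136 CPM in an empty vector library and stayed below 1 CPM with the CSNK2B vector, and EPCAM and KRT19 were below 1 CPM in all. Their part in the results was not tested.

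The short arm of chromosome 7 carries genes with little in common in function. Among them are the actin gene ACTB, the HOXA homeobox cluster, and housekeeping genes of translation, splicing, DNA repair and vesicle traffic. RNA-seq and DGE measure RNA levels and PRO-seq measures engaged polymerase, and none of them counts gene copies. In bulk libraries a smaller share of cells with a transcript and less of it in each cell cannot be told apart.

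Of the 147 members, 73 lay on the plus and 74 on the minus strand, and 18 overlapped another gene of the table. A promoter window from RefSeq (250 bases before to 50 after the gene start, GRCh38.p14) was found for 109 members, and in 96 of them the RefSeq start was within 500 bases of the start in the PRO-seq table. The member windows held a median of 27 CG dinucleotides, against 14 over all 27305 promoters. The GC box GGGCGG was present on either strand in 67.0% of member windows and in 44.6% of all promoters, and the ETS site CCGGAAG in 25.7% and 10.7%. The TATA box TATAAA was in 5.5% of member windows and 12% of all promoters, the AP-1 site TGACTCA in 2.75% and 4.92%, and the CCAAT box CCAAT in 33.0% and 35.7%. Each motif was counted on its own, without regard to overlap with another, and a match is a description only. Members had passed the level minimum, while the set of all promoters was not limited by level. Whether the contrasts in CG dinucleotides and motifs belong to the arm or to the level minimum was not tested.

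Windows of 4 members are printed because their genes did not share a direction across the comparisons below. STK17A and TMEM106B were higher with the CSNK2B vector and in regrown PRO-seq, SUGCT was higher with the vector and lower in regrown PRO-seq, and NOD1 was lower in regrown cells. They were chosen after their values were seen, and SUGCT passed the level minimum only through its CSNK2B vector libraries. Capitals mark the GC box or its reverse complement, the sole motif of the 5 that occurred in these windows. The window of STK17A is chr7:43582858-43583157 (plus strand, 7 matches), that of TMEM106B chr7:12211044-12211343 (plus strand, no match), that of SUGCT chr7:40134755-40135054 (plus strand, 2 matches) and that of NOD1 chr7:30478735-30479034 (minus strand, 3 matches).
STK17A: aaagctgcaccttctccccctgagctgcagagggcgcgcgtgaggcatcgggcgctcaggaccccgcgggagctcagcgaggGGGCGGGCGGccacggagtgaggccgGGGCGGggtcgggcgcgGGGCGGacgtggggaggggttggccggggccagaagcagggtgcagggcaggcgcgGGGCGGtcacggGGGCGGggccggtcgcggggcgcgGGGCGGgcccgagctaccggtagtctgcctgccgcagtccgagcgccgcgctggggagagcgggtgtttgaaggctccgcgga
TMEM106B: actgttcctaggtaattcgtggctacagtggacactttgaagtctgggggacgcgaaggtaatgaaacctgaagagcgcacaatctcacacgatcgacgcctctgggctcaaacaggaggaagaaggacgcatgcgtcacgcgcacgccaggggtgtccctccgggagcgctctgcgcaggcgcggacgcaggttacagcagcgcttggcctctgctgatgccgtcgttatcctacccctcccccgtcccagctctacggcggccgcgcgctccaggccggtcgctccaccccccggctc
SUGCT: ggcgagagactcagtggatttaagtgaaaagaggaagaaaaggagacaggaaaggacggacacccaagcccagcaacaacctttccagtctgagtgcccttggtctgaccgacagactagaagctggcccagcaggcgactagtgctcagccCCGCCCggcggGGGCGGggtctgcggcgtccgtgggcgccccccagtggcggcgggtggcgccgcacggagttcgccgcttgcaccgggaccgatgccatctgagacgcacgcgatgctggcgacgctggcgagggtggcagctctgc
NOD1: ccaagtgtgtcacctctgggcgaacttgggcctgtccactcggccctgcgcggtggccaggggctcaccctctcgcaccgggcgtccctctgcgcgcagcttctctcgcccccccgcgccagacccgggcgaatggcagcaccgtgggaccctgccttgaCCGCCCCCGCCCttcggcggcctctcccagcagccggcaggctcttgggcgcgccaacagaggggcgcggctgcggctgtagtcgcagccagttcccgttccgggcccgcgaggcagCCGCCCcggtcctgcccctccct

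How did the members differ between the vector groups of SU-DHL-1? Nearly the whole arm was slightly higher in CSNK2B vector cells. The log2 change was above 0 in 137 of 147 members, its median was 0.24 (a fold of 1.18) and the quartiles were 0.18 and 0.32. CSNK2B itself, which lies on chromosome 6, had 252, 258 and 245 CPM in CSNK2B vector libraries, against 30.7, 29.4 and 30.03 CPM in empty vector libraries. By edgeR's quasi-likelihood test with Benjamini-Hochberg adjustment, 94 members passed as higher and 1 (AEBP1) as lower, where 3.39% of all 13727 genes tested passed as higher and 3.34% as lower. Since the interval was drawn from this contrast, nothing is read from that count. In 114 members every CSNK2B vector library was above every empty vector library, and in 5 members every one was below (11.5% and 11.2% of all genes).

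The shift was similar in each library. The median member stood 0.25, 0.25 and 0.24 above the mean of the empty vector libraries in the 3 CSNK2B vector libraries on the log2 scale, and at 0.01, 0.00 and -0.01 in the empty vector libraries themselves. In SU-DHL-1, genes on other chromosomes had medians between -0.01 and 0.01 in all 6 libraries. In KI-JK the median member stood at 0.01, 0.01 and -0.00 in CSNK2B vector libraries, and the genes on other chromosomes at 0.03, 0.03 and 0.02. The plot of medians per library shows the members apart from the other genes in SU-DHL-1 and close to them in KI-JK.

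**Figure D1:**
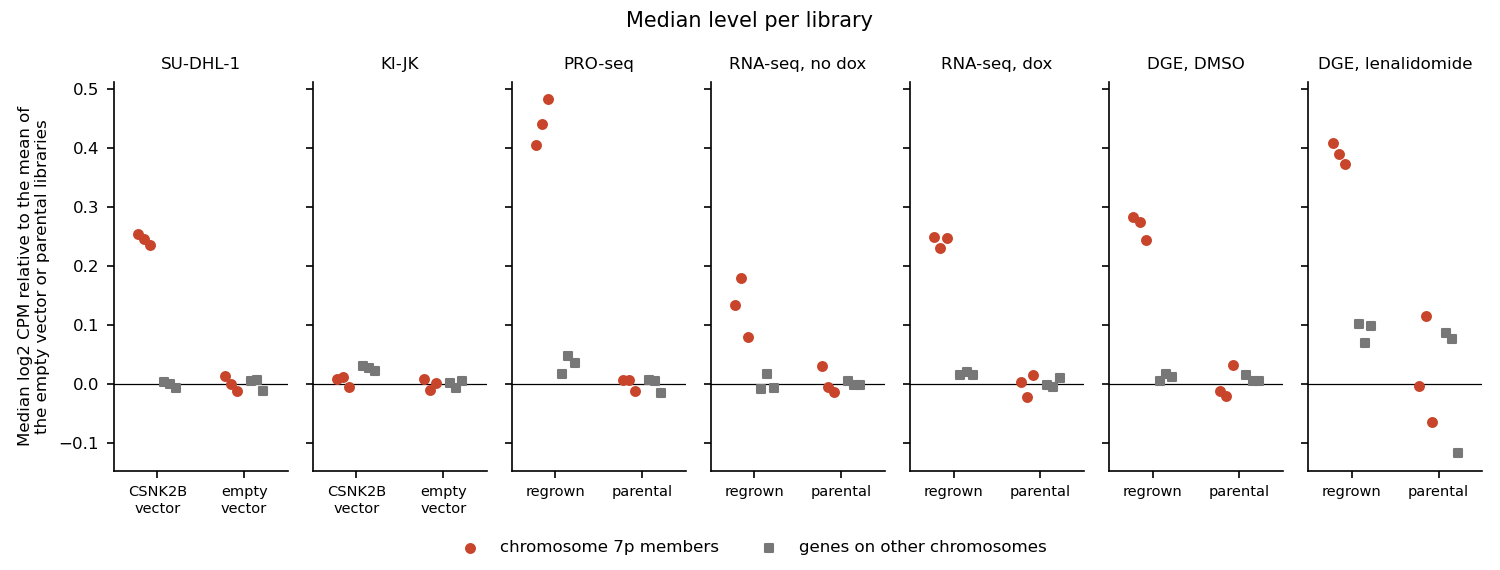
Each point is 1 library. The vertical axis gives its median log2 CPM over the chromosome 7p members (circles) or over genes on other chromosomes (squares), relative to the mean of the empty vector or parental libraries of the same comparison. The members of the CSNK2B vector libraries of SU-DHL-1 lie between 0.24 and 0.25, while those of KI-JK lie near 0.

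Within the interval the vector difference had no gap. In windows of 5 Mb from the chromosome end to 55 Mb, the median log2 change of the genes in a window was between 0.19 and 0.28. The 13 genes above the CPM minimum between the chromosome end and the interval had a median of 0.25, and all 13 were above 0. The members at the distal end were ELFN1-AS1 (0.11), MAD1L1 of the spindle checkpoint (0.32) and the mitochondrial rRNA methyltransferase gene MRM2 (0.33), and their neighbours outside were PSMG3 (0.34), MAFK (0.26) and INTS1 (0.20). At the centromere end the last members were SEC61G of the protein translocation channel (0.12), LANCL2 (0.04) and VOPP1 (0.56), and the next genes outside were MRPS17 (0.03), NIPSNAP2 (0.20) and PSPH (0.38). The gap of 8.41 Mb between genes above the CPM minimum that follows, from 56106476 to 64519878, holds the centromere. The 6 genes between the interval and that gap had a median of 0.15, and the 324 genes beyond it, on the side of the long arm, had a median of -0.00 with 156 above 0. The first of those genes, 6 with a start between 60 and 65 Mb, still had a median of 0.12 and all 6 were above 0, while in the windows from 65 Mb on medians lay between -0.13 and 0.05. Over whole chromosomes, chromosome 7 with both arms had a median of 0.06, with 314 of 492 genes above 0. Medians of the other 22 chromosomes, also with both arms, lay between -0.03 (chromosome 19) and 0.03 (chromosome 17). On chromosome 17, 398 of 641 genes were above 0. Arms or segments of other chromosomes were not examined here, so a shift in part of one would not show. The genes that the rule left out were at 0.19 ± 0.04 (IKZF1) and 0.25 ± 0.05 (SNHG15) on the log2 scale (SE, n = 3 each).

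**Figure D2:**
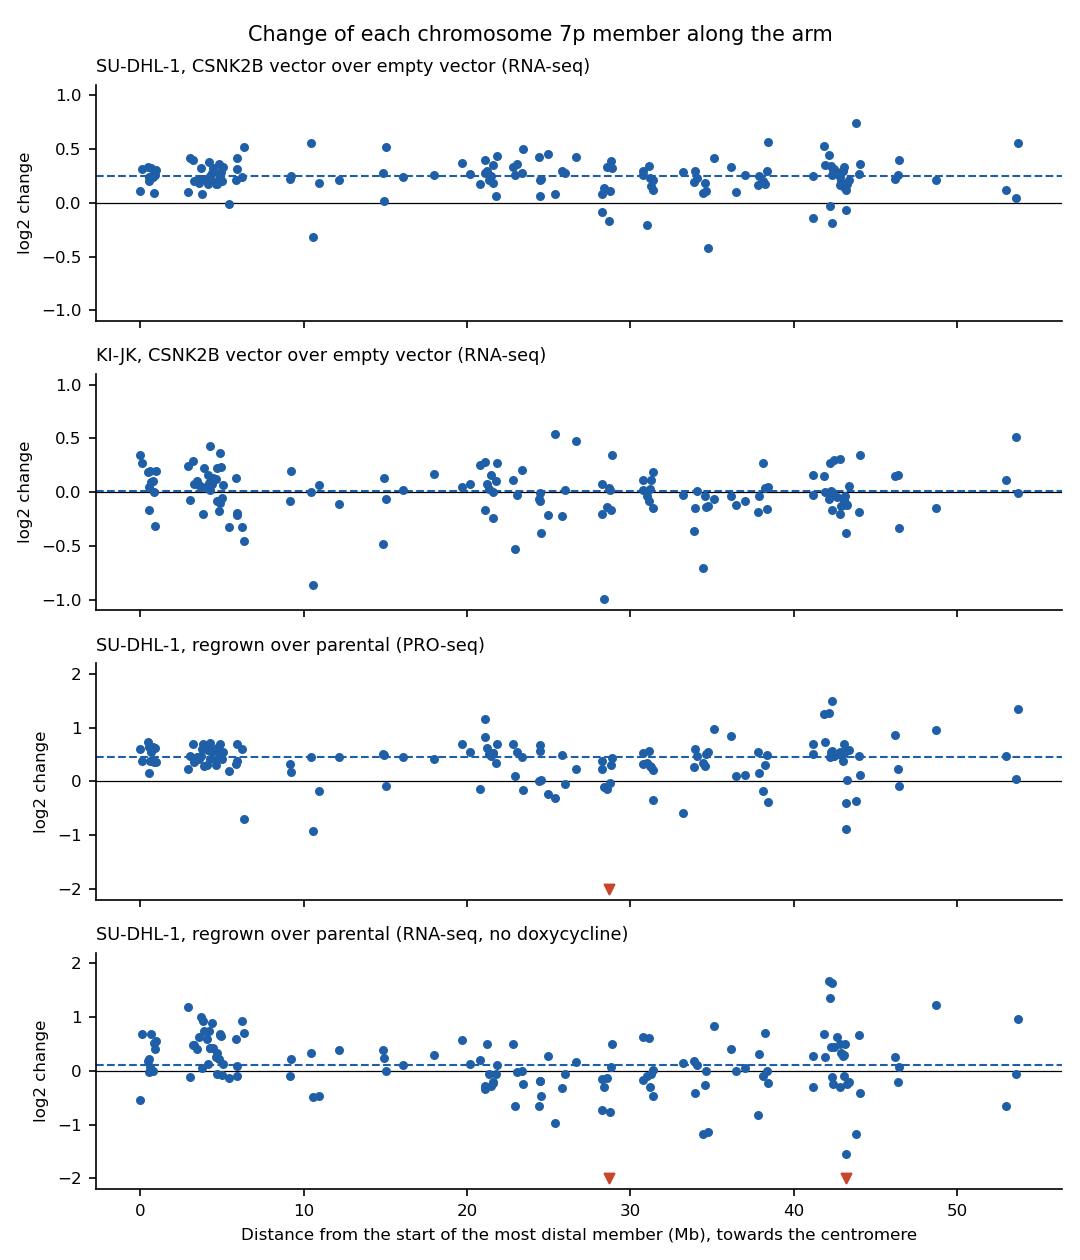
Each point is 1 member. The horizontal axis is the distance from the start of the most distal member towards the centromere in Mb, and the vertical axis the log2 change, CSNK2B vector over empty vector or regrown over parental. Dashed lines are the member medians, triangles are members beyond the axis. In SU-DHL-1 vector cells 137 of 147 points are above 0 along the whole arm, and in KI-JK they lie on both sides of 0.

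The size of the vector difference was narrow, with 112 members between 0.1 and 0.4 and 7 over 0.5. ADCY1, an adenylyl cyclase gene, had 15.4, 16.9 and 18.6 CPM in CSNK2B vector libraries, against 10.2, 9.05 and 11.1 CPM in empty vector libraries (log2 change 0.74 ± 0.10). SUGCT, which encodes a mitochondrial CoA transferase, had 6.01, 4.97 and 5.196 CPM, against 4.02, 3.69 and 3.09 CPM (0.57 ± 0.16). TMEM106B, a lysosomal membrane protein gene, had 25.7, 30.3 and 29.2 CPM, against 18.9, 19.2 and 19.8 CPM (0.56 ± 0.07). In these 3 genes the vector groups did not overlap. SUGCT lay near the minimum of 4 CPM, and the mean of its empty vector libraries was below it. It was a member only through its CSNK2B vector libraries, so nothing is read from its place among the largest differences. VOPP1, an endosomal protein gene, had 39.2, 41.1 and 37.4 CPM in CSNK2B vector libraries, against 26.6, 28.5 and 25.2 CPM in empty vector libraries (0.56 ± 0.06). STK17A, a serine/threonine kinase gene linked to apoptosis, had 52.6, 55.0 and 56.2 CPM, against 38.5, 37.6 and 37.7 CPM (0.52 ± 0.05). The next in size were ICA1, TSPAN13 and C7orf31, at 0.52, 0.52 and 0.50.

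The members at the other end were few and small. AOAH, which encodes an enzyme that inactivates lipopolysaccharide, had 4.91, 5.17 and 5.87 CPM in CSNK2B vector libraries, against 7.45, 7.52 and 6.36 CPM in empty vector libraries (-0.42 ± 0.13). AEBP1, known as a transcriptional repressor and a collagen-binding matrix protein, had 136, 139 and 144 CPM, against 155, 161 and 164 CPM (-0.19 ± 0.04). VWDE was at -0.32, ZNRF2P1 at -0.20, NOD1, a sensor of bacterial peptidoglycan, at -0.17, PSMA2 at -0.14, FKBP14 at -0.09 and AC004847.1 at -0.06.

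Grouped by textbook role (12 lists that overlap, covering 112 members), each list reported here with more than 2 members had a median between 0.22 and 0.30 in SU-DHL-1. It was 0.25 over 16 chromatin and transcription factor genes, 0.26 over 9 RNA binding and splicing genes and 0.22 over 8 translation genes. It was 0.25 over 14 mitochondrial and metabolic genes, 0.22 over 22 genes of secretory and endosomal traffic and 0.24 over 13 genes of DNA repair and the cell cycle, and 0.27 over the 35 members in no list. By expression the medians were 0.26 in the lowest, 0.25 in the middle and 0.23 in the highest 49 members. Across members the change had a Spearman rho of 0.26 with the length of the annotated interval (n = 147 genes of the same libraries).

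**Figure D3:**
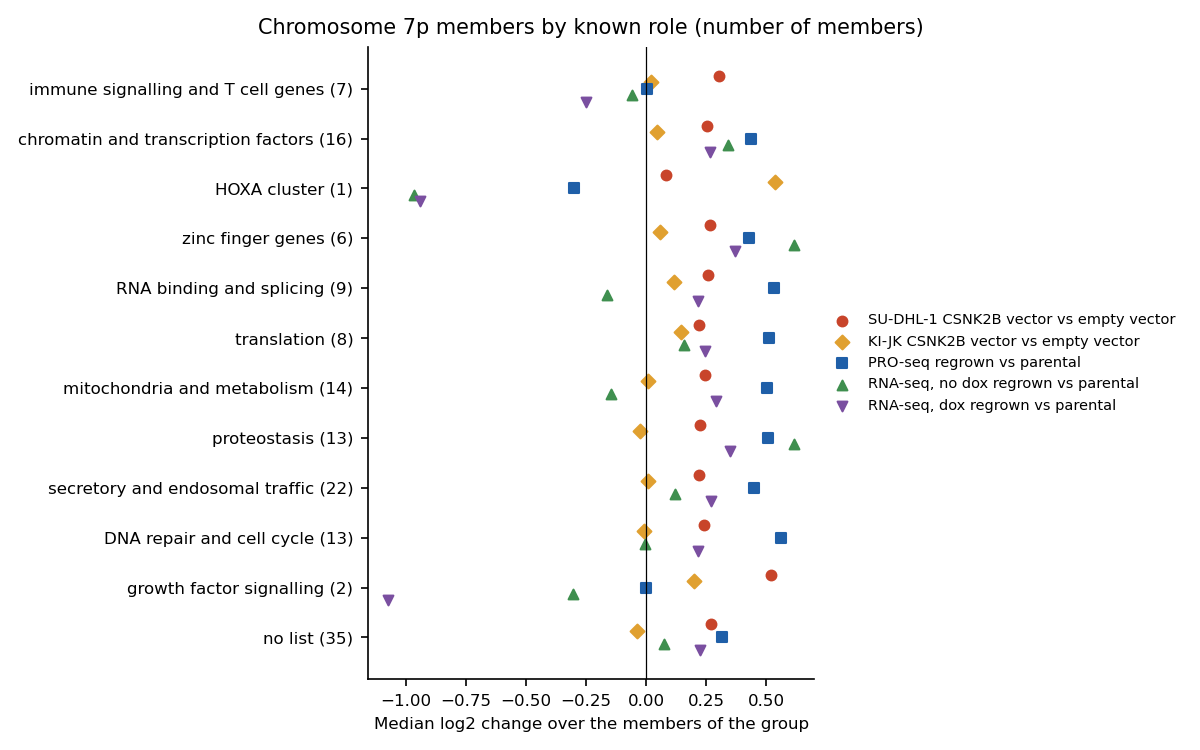
The horizontal axis is the median log2 change over the members of a role group, with 1 symbol per comparison, and the number of members stands beside the group's name. The SU-DHL-1 vector medians lie between 0.22 and 0.30 in all groups shown with more than 2 members, while the RNA-seq medians of regrown cells spread to both sides of 0.

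Did the arm differ between the vector groups of the other line? In KI-JK it differed in neither direction as a whole. Whether the difference in SU-DHL-1 came from the vector was not tested. CSNK2B had 81.3, 80.8 and 76.7 CPM in CSNK2B vector libraries, against 18.3, 15.7 and 18.2 CPM in empty vector libraries (log2 change 2.19 ± 0.06). Of 144 members tested, 24 rose and 21 fell by edgeR's test, and 18.4% and 17.3% of all 14104 genes did so. Of 9248 genes on other chromosomes at the same level minimum, 2346 rose and 1726 fell. The share called was 44% among those genes and 31.2% among members. The member median was 0.01, against -0.01 over all genes tested, and the member shares of 36 higher and 31 lower without overlap stood beside 23% and 22.6% of all genes. ADCY1, AEBP1 and C7orf31 did not pass the low-count filter in KI-JK. IKZF1 was at -0.06 ± 0.04 and was not called, and SNHG15 fell by 0.13 on the log2 scale.

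The members that rose most in KI-JK were LANCL2, CREB5, AIMP2, C7orf26 and GARS. LANCL2 had 18.5, 19.2 and 19.1 CPM in CSNK2B vector libraries, against 13.8, 12.1 and 13.97 CPM in empty vector libraries (0.51 ± 0.08, adjusted p = 5.26e-05 by edgeR). CREB5, which encodes a CRE-binding transcription factor, had 21.8, 23.3 and 21.3 CPM, against 16.1, 16.3 and 15.4 CPM (0.47 ± 0.08, adjusted p = 3.8e-05 by edgeR). AIMP2, a scaffold of the tRNA synthetase complex, was at 0.42 ± 0.06 and GARS, the glycyl-tRNA synthetase gene, at 0.34 ± 0.04. Of 8 translation members 5 rose and 0 fell, beside 18.4% and 17.3% of all genes. In SU-DHL-1 LANCL2, CREB5, AIMP2, C7orf26 and GARS were at 0.04, 0.42, 0.25, 0.27 and 0.33.

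The members that fell most in KI-JK were MTURN, VWDE, EEPD1, GSDME and ANKMY2. MTURN had 1.23, 0.923 and 0.973 CPM in CSNK2B vector libraries, against 2.24, 2.02 and 1.96 CPM in empty vector libraries (-0.99 ± 0.29, adjusted p = 0.00911 by edgeR). GSDME, which encodes a pore-forming gasdermin, had 23.3, 25.3 and 23.6 CPM, against 33.6, 34.5 and 35.9 CPM (-0.53 ± 0.06, adjusted p = 1.12e-06 by edgeR). EEPD1, a nuclease gene of replication fork repair, was at -0.71 ± 0.14, VWDE at -0.87 ± 0.08 and ANKMY2 at -0.49 ± 0.08. In SU-DHL-1 these 5 members were at 0.14 (MTURN), -0.32 (VWDE), 0.09 (EEPD1), 0.26 (GSDME) and 0.27 (ANKMY2). Of the 34 members in no list that were tested in KI-JK, 1 rose and 8 fell, beside 18.4% and 17.3% of all genes. Across the 144 members tested in both lines, which share no library, Pearson's r of the changes was 0.11 and Spearman's rho 0.02. TMEM106B and VOPP1, with 0.56 in SU-DHL-1, were both at -0.00 in KI-JK and their vector groups overlapped. The difference between the lines was not tested.

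How did the arm differ in cells regrown after lenalidomide resistance? In PRO-seq 101 of 147 members rose and 5 fell by edgeR's test, while 14% of all 16456 genes rose and 16.2% fell. The member median was 0.46, against 0.02 over all genes tested and 0.04 over the 9515 genes on other chromosomes at the same level minimum. The 3 regrown libraries had member medians of 0.41, 0.44 and 0.48 above the mean of the parental libraries on the log2 scale, and the parental libraries lay between -0.01 and 0.01. In 109 members every regrown library was above every parental one and in 6 every one was below (22.3% and 22.8% of all genes). The rise was less even along the arm than the vector difference. In windows of 5 Mb up to 55 Mb, medians ran from 0.02 (25 to 30 Mb, 7 of 11 genes above 0) to 0.55 (20 to 25 Mb). The 13 distal genes had a median of 0.40 and the 6 genes before the gap 0.48, and the 322 genes on the side of the long arm 0.06. Over whole chromosomes, chromosome 7 with both arms had a median of 0.14, and the others ran from -0.16 (chromosome 6) to 0.35 (chromosome 3). CSNK2B had 34.4, 30.7 and 31.5 CPM in regrown libraries, against 8.36, 6.75 and 8.18 CPM in parental libraries.

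By role, all 13 members of DNA repair and the cell cycle rose in PRO-seq (median 0.56), as did all 9 of RNA binding and splicing (0.53) and all 8 of translation (0.51). These counts stand beside rises in 101 of all 147 members and in 14% of all genes. Genes of these roles outside the interval were not examined, so no role is singled out. The DNA repair and cell cycle members ran from 0.31 for CDK13 to 0.95 for FIGNL1, an ATPase gene of homologous recombination. FIGNL1 had 15.8, 20.3 and 21.6 CPM in regrown libraries, against 10.1, 9.49 and 10.4 CPM in parental libraries (0.95 ± 0.16, adjusted p = 0.00148 by edgeR). Among translation members AIMP2 had 133, 128 and 132 CPM, against 83.6, 78.7 and 76.1 CPM (0.72 ± 0.09, adjusted p = 0.000155 by edgeR). The groups of both genes were clear of each other. HNRNPA2B1, an RNA-binding protein of splicing and RNA transport, had 559, 463 and 503 CPM in regrown libraries, against 323, 302 and 324 CPM in parental libraries (0.68 ± 0.12).
Of 22 traffic members 16 rose, of 16 chromatin and transcription factor members 12, and of 14 mitochondrial and metabolic members 9. The 7 immune members were split, with 3 rises, 1 fall and a median of 0.00.

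The largest rises in PRO-seq were AEBP1, VOPP1, URGCP, STK17A and SNHG26. AEBP1 had 82.2, 110 and 101 CPM in regrown libraries, against 29.1, 33.3 and 41.4 CPM in parental libraries (1.498 ± 0.15, adjusted p = 5.29e-05 by edgeR). VOPP1 had 141, 125 and 132 CPM, against 49.3, 51.5 and 54.7 CPM (1.35 ± 0.09, adjusted p = 5.32e-06 by edgeR). STK17A had 187, 157 and 173 CPM, against 61.0, 73.9 and 80.9 CPM (1.26 ± 0.12, adjusted p = 4.28e-05 by edgeR). URGCP was at 1.27 ± 0.13 and SNHG26, a small nucleolar RNA host gene, at 1.16 ± 0.11. Of these 5, the SU-DHL-1 vector difference was above 0.3 for all but AEBP1.

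NOD1 stood furthest the other way. It had 26.02, 7.15 and 4.96 CPM in regrown libraries, against 102, 161 and 126 CPM in parental libraries (-3.38 ± 0.50, adjusted p = 0.000662 by edgeR), with regrown replicate 1 above the other regrown pools. The other falls in PRO-seq were VWDE (-0.92 ± 0.24), AC004847.1 (-0.88 ± 0.26), DPY19L1 (-0.59 ± 0.12) and SUGCT (-0.39 ± 0.10). SUGCT had 66.5, 70.1 and 63.0 CPM in regrown libraries, against 93.4, 90.5 and 77.8 CPM in parental libraries. Without parental replicate 1 or 2 the calls of VWDE, AC004847.1 and SUGCT were lost, which left 2 falls in each case, and the call of AC004847.1 was also lost without regrown replicate 1 or 2. The groups of AC004847.1 overlapped.

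Steady RNA followed run-on signal for some members and not for others. In RNA-seq without doxycycline 55 members rose and 19 fell in regrown cells by edgeR's test, against 22.6% and 21.1% of all 13379 genes, with a member median of 0.12 and an all-gene median of -0.00. The groups did not overlap in 60 members higher and 26 lower (27.4% and 26.4% of all genes). With counts scaled by library size only, 46 members rose and 29 fell, the member median was 0.02 and the median of all genes shifted to -0.10. Without regrown replicate 2 the falls numbered 29 and the median was 0.08. With doxycycline 58 rose and 19 fell, against 18.6% and 19.8% of all 13444 genes, and the median was 0.22 (all genes 0.00), and the groups did not overlap in 72 members higher and 24 lower (25.7% and 25.3% of all genes). The falls numbered 10 without parental replicate 3 or regrown replicate 1, and 12 without regrown replicate 2 or 3. At the same level minimum, 2466 of 9559 genes on other chromosomes rose and 2349 fell without doxycycline. With doxycycline 1991 of 9559 rose and 2147 fell. The shares called were 50.4% and 43.3% there, against 50.3% and 52.4% of members. The member change had a Spearman rho with interval length of -0.26 in PRO-seq, 0.22 in RNA-seq without doxycycline and -0.17 with doxycycline, and over all genes rho was -0.21, 0.26 and -0.05. The part of gene length in these results was not tested. Over whole chromosomes, chromosome 3 had medians of 0.43 without and 0.42 with doxycycline, and chromosome 15 of 0.30 and 0.34, above those of the members. Chromosome 9, at 0.18 in both, was above the member median without doxycycline only. Chromosome 7 with both arms was at -0.00 and 0.02.

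Of 147 members, 32 rose in PRO-seq and in both RNA-seq comparisons, where 6.28% of 11760 genes tested in all did so, and 2 fell in all of them (7.24%). The 2 falls were NOD1 and AC004847.1. NOD1 had 0.472, 0.375 and 0.543 CPM in regrown libraries without doxycycline, against 19.0, 17.1 and 18.6 CPM in parental libraries (-5.28 ± 0.24, adjusted p = 1.84e-09 by edgeR), and its change with doxycycline was -5.00 ± 0.27. Among the 32, VOPP1 had 95.4, 93.1 and 92.5 CPM without doxycycline, against 50.8, 46.4 and 47.3 CPM (0.96 ± 0.09, adjusted p = 1.4e-06 by edgeR). FIGNL1 had 74.3, 79.7 and 81.5 CPM, against 29.6, 38.3 and 32.8 CPM (1.22 ± 0.11, adjusted p = 8.7e-07 by edgeR). URGCP was at 1.67 ± 0.16 without and 1.23 ± 0.15 with doxycycline, and STK17A at 0.69 ± 0.10 and 0.47 ± 0.08.

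**Figure D4:**
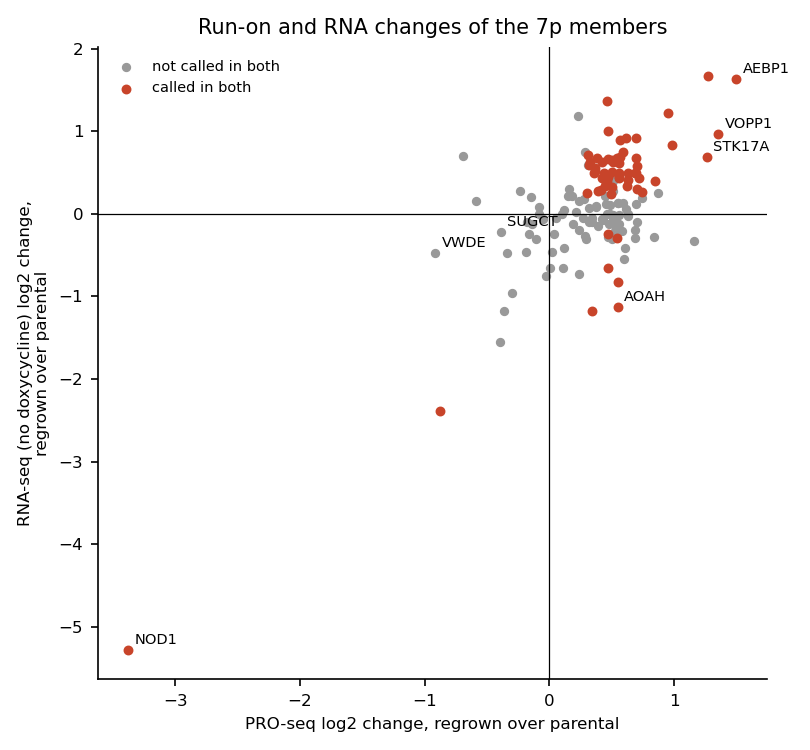
Each point is 1 member, with its PRO-seq log2 change (regrown over parental) on the horizontal and its RNA-seq log2 change without doxycycline on the vertical axis. Red points were called in both assays. Most points lie to the right of 0 in PRO-seq and spread on both sides of 0 in RNA-seq, and NOD1 lies apart at -3.38 and -5.28.

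Of the 101 members that rose in PRO-seq, 52 rose, 6 fell and 43 were not called in RNA-seq without doxycycline. The members that rose in PRO-seq but fell in both RNA-seq comparisons were EEPD1, AOAH and POLD2, a DNA polymerase delta subunit gene. AOAH had 59.7, 60.5 and 75.9 CPM in regrown PRO-seq libraries, against 47.1, 46.5 and 40.6 CPM in parental ones (0.55 ± 0.12, adjusted p = 0.00559 by edgeR). In RNA-seq without doxycycline it had 2.62, 2.84 and 4.22 CPM in regrown libraries, against 6.98, 7.87 and 6.32 CPM in parental libraries (-1.13 ± 0.26, adjusted p = 0.00254 by edgeR). POLD2 was at 0.47 ± 0.10 in PRO-seq and -0.24 ± 0.09 in RNA-seq without doxycycline, where its call was lost without any 1 library except regrown replicate 2. The PRO-seq call of EEPD1 (0.34 ± 0.10) was lost without parental replicate 1 or 2 or regrown replicate 2 or 3, and its RNA-seq call with doxycycline (-0.77) without parental replicate 3 or regrown replicate 1 or 2. Across the 147 members Pearson's r between PRO-seq and RNA-seq without doxycycline was 0.70 and Spearman's rho 0.37, over libraries that the assays do not share. Pearson's r includes NOD1, which lay far from the other members at -3.38 and -5.28, and r without NOD1 was not computed.

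For 3 abundant members, chosen after their values were seen, the RNA-seq result depended on the comparison. ACTB had 576, 591 and 577 CPM in regrown PRO-seq libraries, against 387, 340 and 413 CPM in parental ones (0.61 ± 0.12, adjusted p = 0.00346 by edgeR). In RNA-seq without doxycycline it had 5593, 6144 and 6574 CPM in regrown libraries, against 5583, 6172 and 5797 CPM in parental libraries (0.06 ± 0.09), and the groups overlapped. With doxycycline ACTB rose, at 6950, 7136 and 7240 CPM in regrown libraries, against 4781, 5167 and 5870 CPM in parental libraries (0.43 ± 0.11, adjusted p = 0.0125 by edgeR), a call lost without regrown replicate 3. CBX3, which encodes a heterochromatin protein, was at 0.56 ± 0.09 in PRO-seq, -0.19 ± 0.11 in RNA-seq without doxycycline and 0.44 ± 0.11 with it, where it was called but not without parental replicate 3 or regrown replicate 1. HNRNPA2B1 was at 0.68 ± 0.12 in PRO-seq and was called in neither RNA-seq comparison (-0.20 ± 0.10 without and 0.11 ± 0.11 with doxycycline). Of 9 RNA binding members 1 rose and 1 fell in RNA-seq without doxycycline (median -0.16), and 3 rose and 1 fell with it (0.22). Of 14 mitochondrial and metabolic members 3 rose and 1 fell without doxycycline (-0.15), and 4 rose and 0 fell with it (0.29). Of 16 chromatin and transcription factor members 11 rose and 1 fell without doxycycline (0.34), and 8 rose and 1 fell with it (0.26). Of 6 zinc finger members 5 rose without doxycycline (0.61) and 3 with it (0.37). Over all genes 22.6% rose and 21.1% fell without doxycycline, and 18.6% rose and 19.8% fell with it. The role groups were not tested against each other.
MYO1G, a myosin gene of blood cells, had 110, 52.6 and 78.7 CPM in regrown libraries without doxycycline, against 250, 224 and 234 CPM in parental libraries (-1.55 ± 0.18, adjusted p = 1.19e-05 by edgeR), and ADCY1 was at -1.17 ± 0.25 there and at -2.37 ± 0.16 with doxycycline.

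DGE was shallower, and 95 members under DMSO and 70 under lenalidomide passed its low-count filter. Under DMSO 2 rose (FSCN1 and AEBP1) and 1 fell (DPY19L1) by edgeR's test, against 2.91% and 3.3% of all 5941 genes, and under lenalidomide 2 rose and 0 fell, against 1.2% and 1.57% of all 4648 genes. A difference that was not called here may be below what this depth can show. The median of the members that passed was 0.25 under DMSO and 0.30 under lenalidomide, and it was 0.21 over 136 and 0.15 over 137 members without the filter. Chromosome 3 as a whole had higher medians, at 0.43 under DMSO and 0.41 under lenalidomide. The groups did not overlap in 22 members higher and 4 lower under DMSO (10.9% and 12% of all genes) and in 20 higher and 1 lower under lenalidomide (10.4% and 9.38%). DPY19L1 had 114, 101 and 76.8 CPM in regrown libraries under DMSO, against 165, 194 and 201 CPM in parental libraries (-0.92 ± 0.24, adjusted p = 0.0149 by edgeR), and its call was lost without parental replicate 2 or 3 or regrown replicate 2. The library with 41571 counts was parental lenalidomide replicate 3, and without it the median under lenalidomide was 0.22, with 2 members higher and 1 lower.

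FSCN1 and AEBP1 were the members that rose in all 5 regrown comparisons. FSCN1, which bundles actin filaments, had 408, 511 and 539 CPM in regrown PRO-seq libraries, against 272, 267 and 364 CPM in parental ones (0.69 ± 0.16, adjusted p = 0.00776 by edgeR). In RNA-seq without doxycycline it had 898, 805 and 928 CPM in regrown libraries, against 485, 454 and 453 CPM in parental libraries (0.92 ± 0.09, adjusted p = 1.57e-06 by edgeR). Regrown and parental libraries of FSCN1 did not overlap in any of the 5. It was at 0.59 ± 0.09 with doxycycline, 0.83 ± 0.18 in DGE under DMSO and 1.12 ± 0.29 under lenalidomide. In the vector cells FSCN1 differed in sign between the lines, with 0.22 ± 0.04 in SU-DHL-1 and -0.20 ± 0.04 in KI-JK (adjusted p = 0.000102 by edgeR), where it had 553, 562 and 537 CPM with the CSNK2B vector and 625, 616 and 662 CPM with the empty vector. AEBP1 was at 1.63 ± 0.09 in RNA-seq without and 1.12 ± 0.09 with doxycycline, 1.11 ± 0.24 in DGE under DMSO and 1.27 ± 0.35 under lenalidomide. In the DGE under lenalidomide AEBP1 had no count in parental replicate 3, and its call there was lost without parental replicate 1 or 2 or regrown replicate 3, while that of FSCN1 was lost without any 1 library except parental replicate 3. Under DMSO the call of FSCN1 was lost without parental replicate 1 (0.77).

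**Figure D5:**
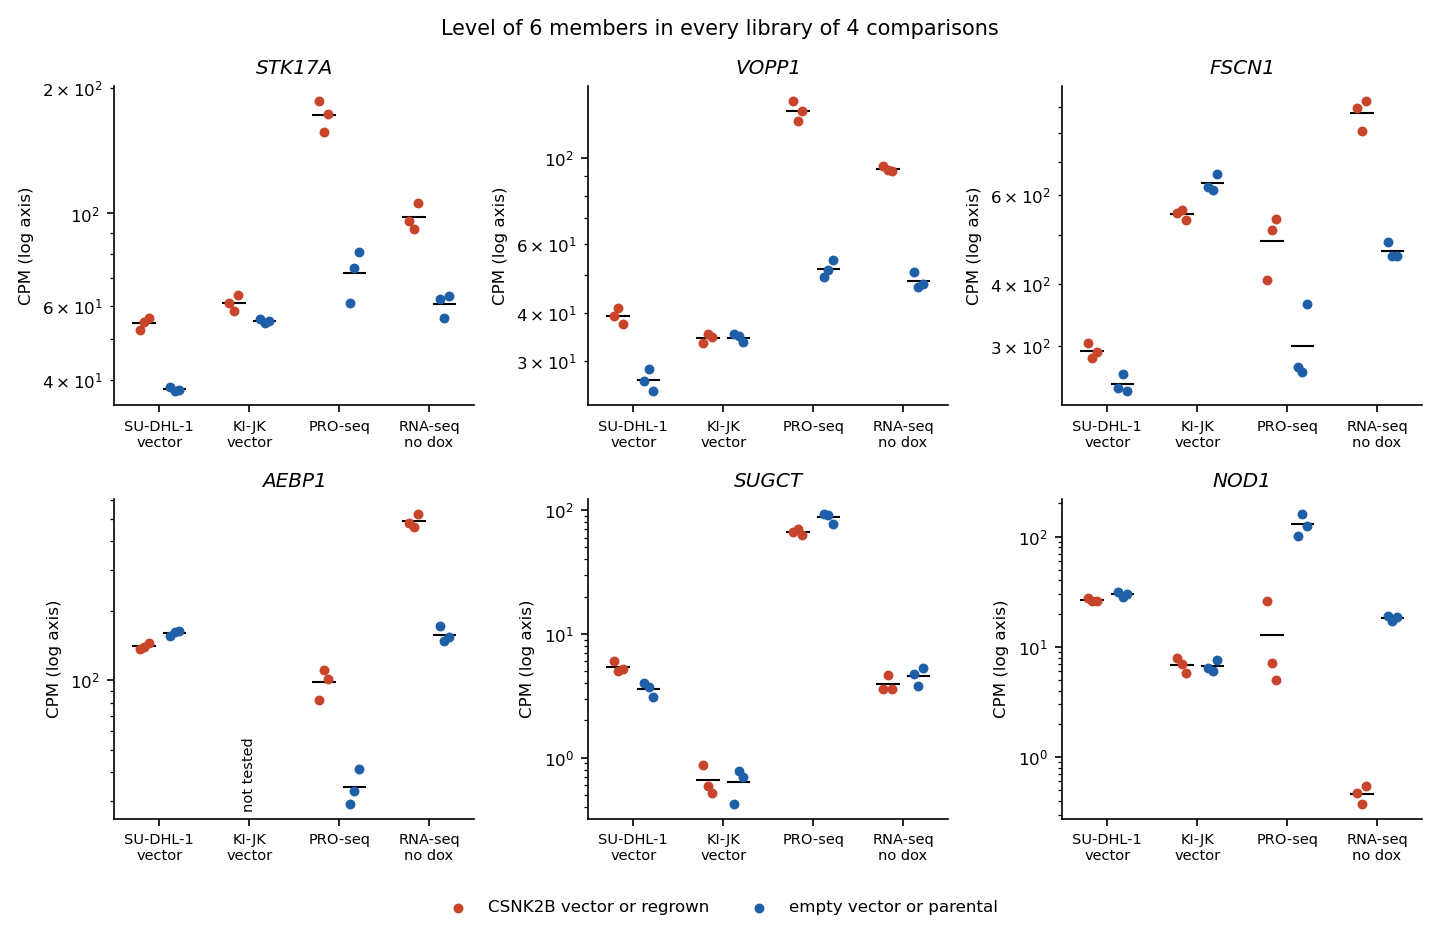
Each panel is 1 member, each point 1 library with its CPM on a log axis, and the black bars are group means. Red points are CSNK2B vector or regrown libraries and blue points empty vector or parental libraries. STK17A and VOPP1 lie higher in the red group in SU-DHL-1 vector cells, PRO-seq and RNA-seq, AEBP1 is lower with the vector in SU-DHL-1 and higher in regrown cells, and NOD1 is near 0.5 CPM in regrown RNA-seq.

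The members called in KI-JK and called in 1 direction in at least 3 regrown comparisons numbered 11, which is 7.64% of the 144 tested, beside 5.73% of 11124 genes of the PRO-seq table. GNA12, RNF216P1, AIMP2, C7orf26, ZNF12, BZW2 and STK17A rose in KI-JK, and FSCN1, GLCCI1, TMED4 and FIGNL1 fell there. All 11 rose in PRO-seq. Since DGE called few members, the choice of at least 3 regrown comparisons nearly required a PRO-seq call, and nothing is read from it. STK17A had 60.9, 58.3 and 63.7 CPM in CSNK2B vector libraries of KI-JK, against 55.7, 54.5 and 55.2 CPM in empty vector libraries (0.15 ± 0.05, adjusted p = 0.0294 by edgeR), and that call was lost without any 1 library except CSNK2B vector replicate 2. ZNF12, a zinc finger gene, was at 0.24 in KI-JK, 0.50 in PRO-seq, 0.65 in RNA-seq without doxycycline and 0.52 with it. In KI-JK the call of ZNF12 was lost without empty vector replicate 3, that of FIGNL1 without empty vector replicate 1 and that of BZW2 without empty vector replicate 2. In PRO-seq the call of TMED4 was lost without parental replicate 1 or 2 or regrown replicate 2 or 3, and that of GNA12 without parental replicate 2. RNF216P1 is a pseudogene whose reads can be shared with RNF216, and the same holds for CCZ1 and CCZ1B, PMS2 and PMS2CL, and SEPTIN7 and SEPT7P2, so their values are uncertain.

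Between the vector cells and the regrown cells, which share no library, the members' changes had a Pearson's r of 0.21 and a Spearman's rho of 0.21 for PRO-seq (n = 147). ADCY1, SUGCT and ICA1 were among the members furthest above 0 with the CSNK2B vector in SU-DHL-1 and were at -0.37, -0.39 and -0.70 in regrown PRO-seq, where SUGCT alone was called. SUGCT passed the level minimum of the member rule only through its CSNK2B vector libraries. TMEM106B was at 0.45 ± 0.14 in PRO-seq, and that call was lost without any 1 library except regrown replicate 1. Of the genes that the rule left out, IKZF1 rose in RNA-seq without doxycycline (0.80 ± 0.10) and was called neither in PRO-seq (0.15 ± 0.14), with doxycycline (0.22 ± 0.12) nor in DGE (0.46 ± 0.18 under DMSO and 0.22 ± 0.31 under lenalidomide). SNHG15 rose in PRO-seq (0.43 ± 0.09), fell in RNA-seq without doxycycline (-0.65 ± 0.17), rose with it (0.79 ± 0.25) and was not called in DGE (0.59 ± 0.22 and 0.53 ± 0.30).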

How the data were processed

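Gene counts of 42 libraries were analysed, and 38 ChIP-seq samples were not analysed here. The authors deposited whole-number counts per gene with no normalization. Per the submitters' processing notes, PRO-seq used cutadapt 1.14, Bowtie 1.2.2, featureCounts 1.6.2 and hg38, DGE used Bowtie2 2.2.3, DESeq2 and hg19, and RNA-seq used edgeR 3.24.3, DESeq2 1.20.0 and STAR 2.6.1d on hg38. The RNA-seq counting tool and its use of strand are not given in the sources used here, so overlapping genes cannot be told apart.

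Each comparison was fitted to its 6 libraries over all genes with edgeR 4.0.16 in R 4.3.3 (filterByExpr, TMM, glmQLFit, glmQLFTest, two-sided) and adjusted by Benjamini-Hochberg over all genes tested. A member rose or fell when its adjusted p was under 0.05. Values are log2 change ± SE (n = 3 libraries each), the SE being the change over the square root of F. CPM values are TMM-scaled, except in the member rule and for marker genes. There were 7 comparisons. The same steps were tested on simulated data with known changes.

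The members, the role lists, the rule for naming genes and the interval were chosen with earlier results of these data known. Named were the members with the largest changes per comparison, the most expressed members of each role list, the members at the borders, and members called in KI-JK and at least 3 regrown comparisons, but not all are printed. The role lists count members only, and 1 list is not reported here. 27 gene names that a spreadsheet had turned into dates, 1 of them a member, took the symbol of their identifier. In DGE, 137 members had a matching name. Replicates of a group differed by more than sampling noise (chi-square over its degrees of freedom 1.36 or more). The largest values were 56.98 for parental RNA-seq replicates 1 and 2 with doxycycline and 51.8 for regrown PRO-seq replicates 1 and 3. Alternatives were other scalings, no filter, DESeq2 1.42.0, a replicate block, other member cut-offs and leaving out each library.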

Additional observations from a re-analysis of the deposited data

Results flagged for a closer look

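For 14 of the members picked by the naming rule, every CSNK2B vector library lay above every empty vector library in SU-DHL-1 and below every one in KI-JK. Over all 144 members tested in both lines there were 24 such members (16.7%), beside 2.4% of 11517 genes of the PRO-seq table. Since the interval was drawn from the SU-DHL-1 contrast, where 112 of the 144 were higher without overlap, nothing is read from that share. The difference between the lines was not tested. The KI-JK log2 change was -0.71 for EEPD1, -0.53 for GSDME, -0.49 for ANKMY2, -0.46 for ICA1 and -0.38 for MYO1G. It was -0.21 for SKAP2, an adaptor of Src kinases, -0.20 for FSCN1 and -0.20 for TMED4, which acts in secretory transport. It was -0.14 for FIGNL1, -0.13 for ANLN, -0.085 for KBTBD2, -0.084 for NDUFA4, -0.078 for VPS41 and -0.043 for NUDCD3, and of these 6 FIGNL1 and ANLN were called. The call of ANLN was lost without CSNK2B vector replicate 1 or empty vector replicate 3. KDELR2, which returns proteins to the endoplasmic reticulum, went apart between the RNA-seq comparisons of regrown and parental cells. It was at 0.24 with doxycycline, every regrown library above every parental one, and at -0.06 without doxycycline, every regrown library below. That difference was not tested either, and the call with doxycycline was lost without parental replicate 3 or any 1 regrown library.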

How the results depend on the processing

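In PRO-seq the member median was 0.44 to 0.47 under the alternatives run. In SU-DHL-1 vector cells, whose contrast chose the interval, values are a description and no sign of stability: the median was 0.24 to 0.25, members higher numbered 80 to 103 and members lower were 2 with the replicate block and 1 to 2 when 1 library was left out. In KI-JK the median, close to 0, was -0.0082 with library size only, 0.026 with no filter and -0.0060 to 0.020 without 1 library. In PRO-seq 81 to 102 members rose and 2 to 7 fell without 1 library. In RNA-seq without doxycycline, library size only gave 29 falls and a median of 0.016, and without 1 library there were 14 to 29 falls and medians of 0.076 to 0.144. With doxycycline the median was 0.24 with the replicate block and 0.21 to 0.26 without 1 library, where 41 to 69 members rose and 10 to 24 fell. In DGE under DMSO no filter gave 2 falls and a median of 0.21, DESeq2 0 falls and the replicate block 4 rises. Without 1 library it gave 1 to 4 rises, 0 to 1 falls and medians of 0.22 to 0.30. In DGE under lenalidomide no filter gave 1 rise, 1 fall and a median of 0.15, and DESeq2 0 rises. Without 1 library it gave 0 to 2 rises, 0 to 1 falls and medians of 0.22 to 0.32. The cause was not tested. No called member that the text names changed sign. Whether replicate numbers pair the samples was not settled. Correlations of same-numbered libraries' deviations ran from -0.09 to 0.22, and no comparison had every pair over 0.1. Each regrown or vector library matched its own number best in SU-DHL-1 vector cells and DGE under DMSO. With the replicate block, calls over all genes went from 925 to 1171 in SU-DHL-1 vector cells and from 369 to 523 in DGE under DMSO. They also increased in KI-JK and PRO-seq, and decreased in both RNA-seq comparisons of regrown cells and in DGE under lenalidomide. The replicate block moved the SU-DHL-1 count of higher members to 103. DGE libraries held 41571 to 395827 counts.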
